A study of Mus musculus with 10 samples.

Results

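Of the 15091 m6A peaks listed for wild-type (WT) mouse cortex and hippocampus, 3538 lay on 2 or more exonic blocks, which is 23.4% (Wilson 95% interval 22.8 to 24.1). As drawn, these multi-block peaks run over at least 1 boundary between exonic blocks, and they were chosen by the number of block sizes in their entry alone. They lay in 2754 of the 7717 genes with a WT peak. The other 11553 peaks lay within 1 block. The study compared m6A-seq of postnatal day 5 cortex and hippocampus in 10 libraries. There were 3 m6A-immunoprecipitated (IP) and 3 input libraries labelled WT, and 2 IP and 2 input libraries labelled Mettl14 KO, in which Mettl14 was removed with Nestin-Cre. Nestin-Cre acts in the neuroepithelial lineage, so cells of vessels, meninges and blood and microglia would keep the gene. The sources used here do not say whether WT animals carried Cre or floxed alleles, nor the sex or pooling of animals. The labels name the brain regions and also a supplemented culture medium, so direct or cultured origin of the RNA cannot be told from them. A single consensus list per genotype was analysed, so no value has a replicate error, loss of Mettl14 RNA could not be checked, library depth is unknown, and intervals cover counting error over peaks only.

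N6-methyladenosine is written on nascent mRNA by a nuclear complex of METTL3 and METTL14. The mark lies mostly in long internal exons, around stop codons and in last exons, and it is sparse close to splice junctions, where the exon junction complex is laid down during splicing. In m6A-seq the antibody captures RNA fragments longer than the modified base, so a peak near the end of an exon can run on into the next. A multi-block peak therefore locates an enriched stretch of RNA drawn as spliced and does not place a modified base at the junction.

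Sequence at the block edges was read where it was held, to see whether the gaps are introns. RefSeq windows of GRCm38.p6 that run from 250 bases before to 50 after a transcript start contained the upstream edge of 109 of the 6095 gaps. The intron began with GT in 108 of these and with GC in 1, on the strand of the peak. The first 4 sequences below are donor edges of junctions crossed in both genotypes and the next 4 are donor edges of WT peaks without a KO counterpart, taken by greatest exonic width. Each gives 15 exonic and then 15 intronic bases, with the first 2 intronic bases in capitals.
Supt6 (chr11:78245533-78245562, minus strand): gcggccttcaagcagGTaacgctcagcctg
Abcf1 (chr17:35969631-35969660, minus strand): gcacgagccccgcggGTgagtggggaagga
Ccsap (chr8:123859080-123859109, minus strand): acacagtgttaccagGTacgggcacagcgc
Hnrnpd (chr5:99976519-99976548, minus strand): acagcgggaagaatgGTaaaacttttacat
Gpatch2l (chr12:86241930-86241959, plus strand): cgactgcggcagccgGTgaggggaaggatg
Moap1 (chr12:102743484-102743513, minus strand): tgtatctacgggcagGTgatcctgatggcg
Slitrk5 (chr14:111675709-111675738, plus strand): gtgcagatgggaacaGTaagtaccggccgg
Ehbp1 (chr11:22014840-22014869, minus strand): ccagctttccctcctGTgagtacccagcct
The canonical GT is present in all 8 of these because they were taken from the edges with GT, so they add nothing to the count above.

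Downstream edges were less uniform. Of 108 that lay in a window, 28 followed AG, the canonical end of an intron (7 of them also at a listed transcript start), and 80 did not. All 80 of the latter were blocks whose first base is itself a listed transcript start, so there the block is the beginning of an alternative first exon and the gap is not a spliced intron. Such windows lie at transcript starts and hold these cases preferentially. Over all members, the later block began at a listed start in 87 of 6095 gaps (1.43%), and 9 gaps were shorter than 30 bases. The next sequences give 15 bases before and 15 bases after the edge. The first 3 end the intron in AG and the last 3 are blocks that begin at a listed start, with the 2 bases before the block in capitals.
Eif5b (chr1:38032262-38032291, plus strand): ctccccactgcttAGgtgttgaagtgccat
Lzts3 (chr2:130635450-130635479, minus strand): cctgcccctgtccAGgtgtgccagaaggcc
Nop14 (chr5:34650606-34650635, minus strand): atggtctttttctAGgatgggaagatgaac
Ncdn (chr4:126752553-126752582, minus strand): cagtctactttctCTgaagaagggagggga
Msantd3 (chr4:48540484-48540513, plus strand): ccagcccgccagaGCagcccaggccgccgc
Msl1 (chr11:98798639-98798668, plus strand): cagggctgagaatGTagctcagtggtgctg
The entries are thus drawn on a gene model that joins exons of different transcripts. Without the 89 peaks that hold a short gap or such a start, the main share given below was 29.1% in place of 28.9%.

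The multi-block peaks were wider in exonic bases than the rest and spread over long stretches of the genome. Their median exonic width was 241 bases (quartiles 179 and 417), against 181 bases (120 and 299) for single-block peaks. From first to last base they covered a median of 2574 genomic bases (1090 and 6734), since the median gap was 1134 bases. Blocks between the outer ones, which are whole exons of the model, had a median length of 105 bases (72 and 144). Most peaks were uneven, with the longest block holding a median of 67.0% of the exonic bases. An outer block was under 20 bases in 1006 of the 3538 peaks (28.4%), so in these the crossing rests on a short overhang. There were 2171 peaks on 2 blocks, 788 on 3, 299 on 4 and 280 on 5 or more.

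They lay almost entirely in protein-coding genes, and few had their midpoint near a gene end. RefSeq classed the gene as protein-coding for 99.2% of the multi-block peaks and as long noncoding for 0.821%, against 97.8% and 1.88% of single-block peaks. The midpoint was within 1000 bases of the gene end for 3.57% (interval 3.003 to 4.23), against 19.7% (19.0 to 20.4) of single-block peaks. Within 200 bases of the gene start the shares were 0.424% and 4.31%. Gene ends often hold a long last exon, where a peak has no junction to cross, so these positions are not independent of the rule. The midpoint was also taken over the genomic span, gaps included, and the median span of multi-block peaks was 2574 bases. A peak of that span inside its gene cannot have its midpoint within 1000 bases of the end, even if it reaches the end. Part of each difference is therefore fixed by the measure.

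Multi-block peaks were listed again in the Mettl14 KO more often than single-block ones. A WT peak is called retained here when at least 1 of its exonic bases lay under a KO peak on the same strand, and lost otherwise. Of all WT peaks 12.9% were retained. The count was 1021 of the 3538 multi-block peaks, or 28.9% (interval 27.4 to 30.4), and 933 of the 11553 single-block peaks, or 8.08% (7.59 to 8.59). Retention was higher with each further block up to 5. It was 8.08% on 1 block and 19.4% (17.8 to 21.1) on 2, the classes on either side of the rule. It was 32.5% (29.3 to 35.8) on 3 blocks, 48.2% (42.6 to 53.8) on 4 and 67.7% (59.2 to 75.2) on 5. The values for 6 blocks (73.4%, 62.8 to 81.9) and for 7 or more (75.7%, 64.8 to 84.0) did not differ from that for 5 beyond their intervals. On 10 or more blocks 13 of 14 peaks were retained, the exception being a peak of Clip1, named after its values were seen.

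**Figure D1:**
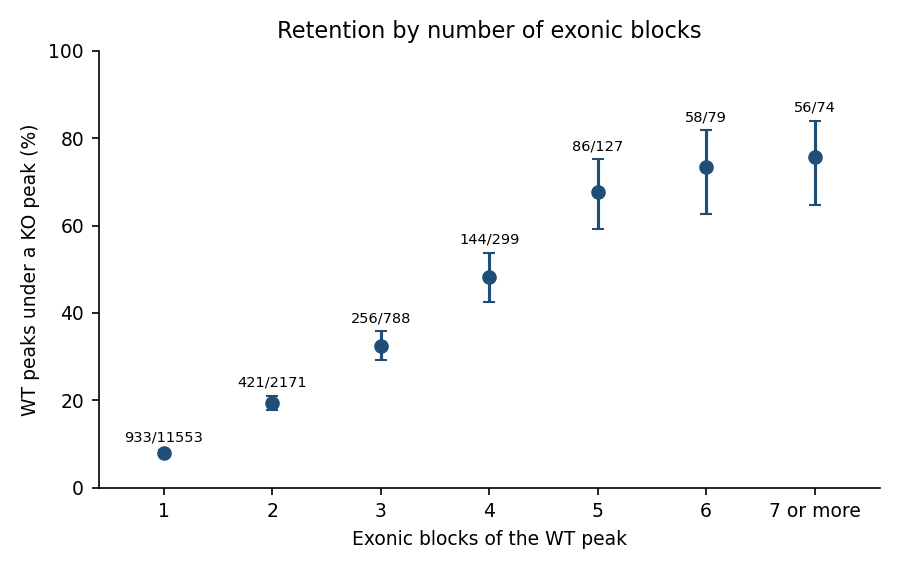
Share of WT peaks under a KO peak (%, vertical axis) by the number of exonic blocks of the WT peak, with Wilson 95% intervals and the count retained over the count in all above each point. The share is 8.08% on 1 block, 19.4% on 2 and 75.7% on 7 or more.

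Peaks on many blocks were also wide and strong. The median exonic width was 210 bases on 2 blocks, 360 on 4 and 809 on 7 or more. The strongest 20% of the WT list, by the score the authors deposited (a p-value or q-value, which of these is not settled), held 19.9% of the 2-block peaks and 63.5% of those on 7 or more. The comparison was therefore repeated among peaks of similar width, in 5 classes of about equal size. In the narrowest class, 58 to 119 bases, 5.47% of multi-block and 2.36% of single-block peaks were retained. From 179 to 239 bases the shares were 18.6% (interval 15.95 to 21.6) and 6.42% (5.50 to 7.47). In the widest, from 360 bases, they were 50% (47.1 to 52.9) and 19.9% (18.2 to 21.7), at median widths of 510 and 481 bases. Pooled over the classes by the Mantel-Haenszel method, the multi-block share was higher by 16.98 percentage points (95% interval 15.5 to 18.5). It was higher by 17.1 points (15.7 to 18.5) when each width class was also divided into 5 classes of that score. Peaks of a gene share its transcript and are not independent, so these intervals describe the 2 lists and not the animals.

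**Figure D2:**
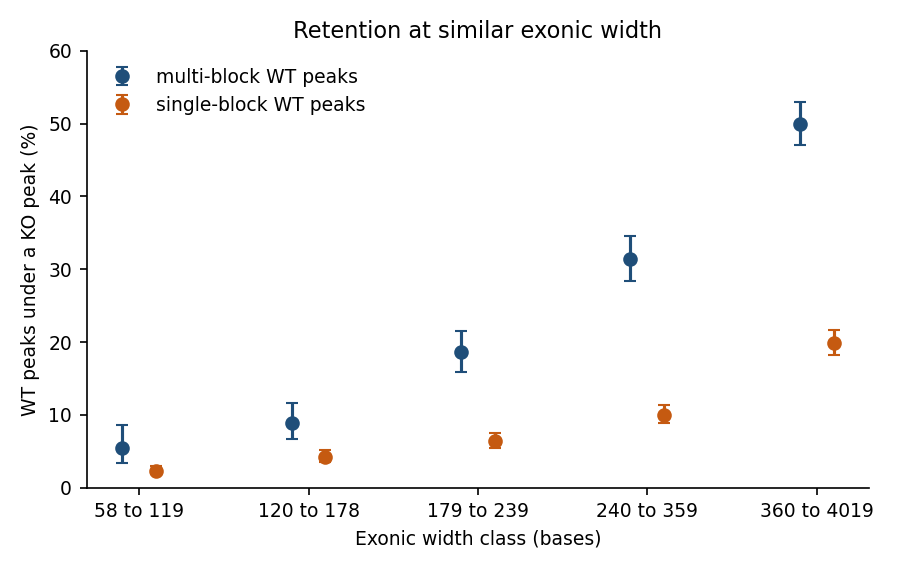
Share of WT peaks under a KO peak (%) in 5 classes of exonic width (bases), for multi-block (blue) and single-block (orange) WT peaks, with Wilson 95% intervals. The multi-block point lies above the single-block point in every class, from 5.47% against 2.36% to 50% against 19.9%.

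The direction was the same within classes of score and within genes. Among the strongest 20% of WT peaks, 59.4% of 891 multi-block and 19.5% of 2112 single-block peaks were retained. Their median widths were 478 and 357.5 bases, so this class is not matched for width. The difference within classes of both width and score is given above. Among the weakest 20% the shares were 5.50% (interval 3.88 to 7.75) and 3.18% (2.56 to 3.94), whose intervals overlap. Both kinds occurred in 1484 genes, though peaks of a gene need not lie on the same transcript. In these genes 29.6% of 1966 multi-block and 12.02% of 2911 single-block peaks were retained. Conditional logistic regression with the gene as stratum gave an odds ratio of 2.36 (95% interval 1.95 to 2.86) at equal width and score rank. It rests on the 646 of these genes in which some peaks were retained and others lost.

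No difference by nearness of the midpoint to the gene end was detected among multi-block peaks. Of the 126 multi-block peaks near a gene end, 26.2% (interval 19.3 to 34.5) were retained, against 28.9% of the others (Fisher's exact p = 0.549, two-sided). Single-block peaks were retained in 5.11% near the gene end and in 8.79% elsewhere (Fisher's exact p = 1.53e-09). Whether the 2 kinds of peak differ in this respect was not tested. Leaving out all peaks with a midpoint near gene ends put the difference between the kinds within width classes at 16.2 points (14.7 to 17.7).

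The KO list was richer in multi-block peaks than the WT list. Of 3733 KO peaks, 1229 lay on 2 or more blocks, or 32.9% (interval 31.4 to 34.4), against 23.4% of WT peaks (Fisher's exact p = 2.08e-31, two-sided). Peaks are not replicates of a genotype, and many KO peaks lie over WT peaks. The p-value therefore describes these 2 lists and does not measure an effect of the KO. Of all KO peaks 56.7% lay over a WT peak. Among these the multi-block share was 39.3% (37.2 to 41.4), and among the remaining KO peaks it was 24.6% (22.6 to 26.8). KO multi-block peaks were narrower, with a median of 180 exonic bases, and their inner blocks had a median of 99 bases. Multi-block WT peaks lay under 1138 of the KO peaks, and 798 of those KO peaks (70.1%) crossed a gap themselves.

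Crossed junctions were also counted, each once, and every gap between blocks was taken as a junction. The few gaps described above that are not introns were not removed. Multi-block WT peaks crossed 6080 distinct junctions and KO peaks 1882. Both lists shared 1252, which is 20.6% of the WT junctions (interval 19.6 to 21.6) and 66.5% of the KO junctions (64.4 to 68.6). Within retained peaks 51.6% of the junctions were also crossed in the KO. A retained multi-block peak shared at least 1 junction with the KO in 739 of 1021 cases (72.4%).

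KO peaks covered a part of each retained peak, most often its middle. The covered part had a median of 50.4% of the exonic bases (quartiles 33.6 and 72.2), and 63 of the 1021 peaks (6.17%) were covered whole. The blocks were identical in both lists for 27 peaks. In 90.01% the KO peaks reached the longest block, and in 35.5% they reached every block. Fewer than 20 bases were shared with any KO peak in 8. Counted in bases over all peaks, KO peaks covered 19.7% of the multi-block exonic length (229 of 1162 kb) and 5.65% of the single-block length, against 9.8% of all WT peak length. By place in the peak, 32.8% of inner-block bases were covered, 18.4% of the 5′ outer blocks and 12.1% of the 3′ outer blocks.

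The 5′ and 3′ margins were unequal. Along the exonic bases of retained multi-block peaks, 36.3% of the first 10% lay under a KO peak, 59.6% from 40% to 50% of the length, and 17.03% of the last 10%. In retained single-block peaks the values were 25.8% at the 5′ margin and 19.4% at the 3′ margin. The part that peak geometry alone has in this profile was not tested. Exonic distance to the nearest crossed junction gave a similar order. Bases within 100 of a junction were covered in 22.0% and bases farther away in 15.6%, a difference of 6.44 points. Far bases lie mostly in outer blocks of wide peaks, and neighbouring bases are not independent, so no test was made.

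**Figure D3:**
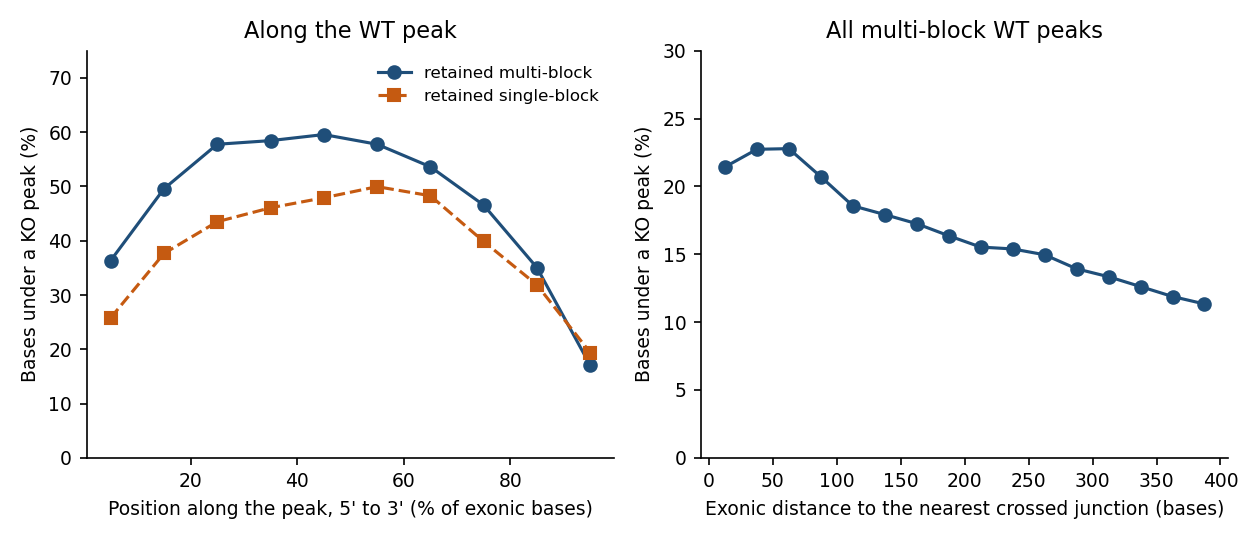
Share of exonic bases under a KO peak (%): left, by position from 5′ to 3′ in steps of 10% of the exonic length for retained multi-block (blue circles) and single-block (orange squares) WT peaks; right, by exonic distance to the nearest crossed junction in bins of 25 bases for all multi-block peaks. The left curve for multi-block peaks runs from 36.3% over 59.6% to 17.03%, and the right one falls from 22.8% at 50 bases to 11.3% at 375 bases.

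Inner blocks can be compared by length, since they are whole exons of the model. KO peaks touched 33.1% (interval 30.5 to 35.9) of 1186 inner blocks under 100 bases, 46.8% (44.0 to 49.7) of 1151 blocks from 100 to under 200 bases and 56.8% (50.2 to 63.2) of 220 longer ones. A longer block offers more bases to touch. In bases, the covered shares were 27.4%, 35.8% and 32.5%, so the longest class was not the most covered.

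The peaks over the most exons lay in genes of nonmuscle myosins, collagens and several other proteins. Myh10, the nonmuscle myosin heavy chain IIB gene, held 1 peak over 19 blocks and 3024 exonic bases at chr11:68787350-68814456. In the KO it was broken into 5 peaks of 2 or 3 blocks each, which covered 1590 bases (52.6%) and crossed 9 of its 18 junctions. Col6a1, a collagen VI chain gene of meningeal and perivascular cells, also had 19 blocks but 897 bases, at chr10:76713917-76720965. A single KO peak of 5 blocks covered 151 of these bases (16.8%). Collagen genes are built of many short exons, so a peak there can cross many junctions over a given exonic width. Col9a3 had 12 blocks in 600 bases, with 25.2% covered. Both collagen peaks were also wide, above the upper quartile of 417 bases of multi-block peaks.

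Cep131, a centriolar satellite gene, carried 14 blocks over 1611 bases, of which 31.5% were covered. Dnmt1, the maintenance DNA methyltransferase gene, had 11 blocks over 661 bases with 22.8% covered. Myh9, another nonmuscle myosin gene, had 2 multi-block peaks, on 11 and 8 blocks, with 34.7% and 37.6% covered. A further one, Myh14, is not among the genes with the most blocks. It had 3 multi-block peaks on at most 4 blocks, and none was retained. Eif3a, which encodes the largest subunit of translation initiation factor 3, had 11 blocks over 2305 bases at chr19:60762043-60772900. KO peaks covered 71.5% of it and crossed 6 of its 10 junctions, with a KO peak of 7 blocks among them. Ppp1r9b, the gene of the dendritic spine protein spinophilin, had 10 blocks over 1644 bases, with 60.1% covered. In all 8 genes chosen for the most blocks, the peak with the most blocks was retained, with covered shares from 16.8% in Col6a1 to 71.5% in Eif3a. Of all peaks on 10 or more blocks 13 of 14 were retained, so this is not particular to these genes. The median covered share over all retained multi-block peaks was 50.4%.

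**Figure D4:**
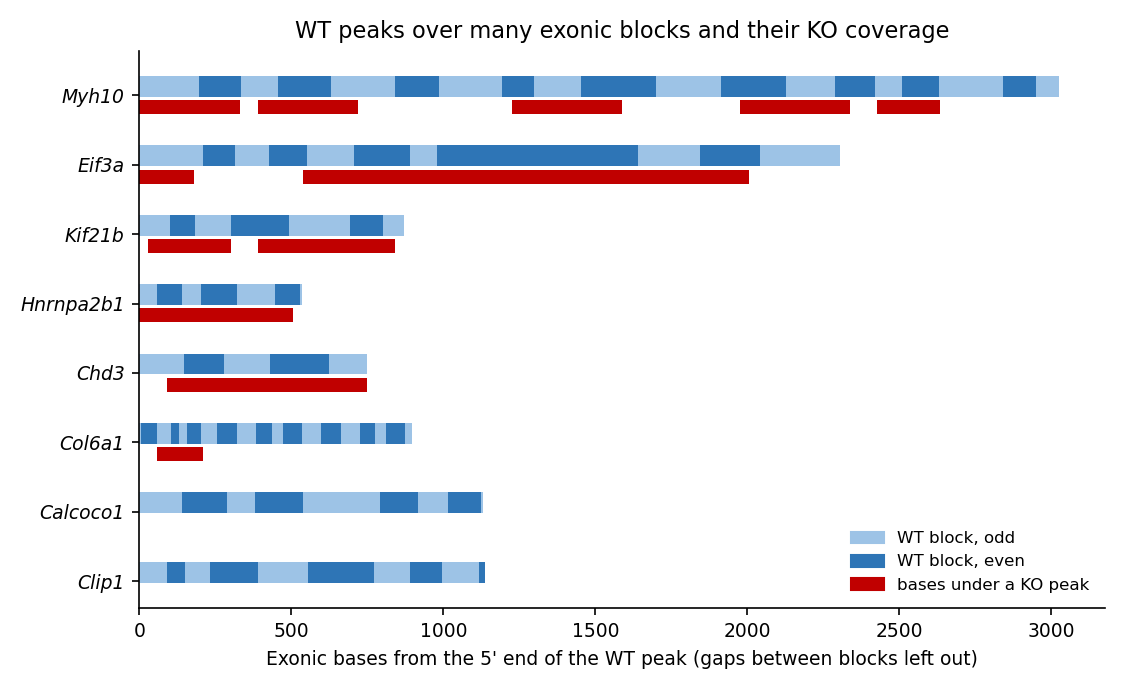
WT peaks of 8 genes drawn along their exonic bases from the 5′ end (horizontal axis, bases, gaps left out), with alternating blues for successive blocks and red for bases under a KO peak. KO coverage is broken into 5 pieces in Myh10, spans 94.4% of the Hnrnpa2b1 peak, is confined to 151 bases in Col6a1 and is absent in Calcoco1 and Clip1.

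Chromatin remodeler genes were among those with the most junctions shared by both genotypes. Chd5, a neuronal remodeler of the CHD family, retained 4 of 4 multi-block peaks and 11 of 14 junctions. Its relative Chd3 retained 3 of 5 peaks and 9 of 14 junctions, and its 4-block peak at chr11:69363690-69369426 (630 bases) had identical blocks in both lists. Smarcc2, a subunit of BAF complexes, retained 2 of 3 peaks and 8 of 10 junctions. Motor and cytoskeletal genes were also among them. Kif21b, a kinesin gene, retained 3 of 3 peaks with 71.6% to 85.8% of their bases covered and 7 of 9 junctions shared. Map7d1, a microtubule-associated protein gene, retained 2 of 2 peaks and 9 of 11 junctions, and the myosin gene Myo18a 3 of 5 peaks and 8 of 14. Cdk11b, a cyclin-dependent kinase gene linked to splicing, had 1 peak over 10 blocks with 75.02% of its bases covered and 7 of 9 junctions shared. Myh10, with 9 of 18, is the eighth of these genes, and all 8 were chosen by this count.

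Other genes lost every multi-block peak, which was the more common outcome. Of the 2754 genes with a multi-block peak, 894 (32.5%) retained any. The genes named here were chosen for the most junctions among genes without a retained multi-block peak. Their losses therefore follow from that rule. Clip1, which encodes the microtubule plus-end protein CLIP-170, held 3 multi-block peaks over 13 junctions, the widest on 10 blocks and 1136 bases at chr5:123590827-123627384. Its 1 KO peak lay elsewhere in the gene. Smc3, a cohesin subunit gene, lost 3 peaks over 10 junctions, and the splicing factor gene Slu7 lost 3 over 9. Mia3, which encodes a protein of the endoplasmic reticulum needed for collagen export, lost 4 multi-block peaks over 9 junctions. Erc2, a presynaptic active zone gene, lost 2 over 9, the wider on 9 blocks and 809 bases. Calcoco1 lost its only WT peak, on 9 blocks and 1130 bases at chr15:102709269-102716370. The collagen genes Col7a1 and Col9a2 lost 4 and 2 peaks, over 10 junctions each. The scores the authors deposited for the widest peaks of Clip1 and Erc2 were 2e-74 and 1e-236, whereas the 4 of Col7a1 lay between 1.3e-09 and 5.1e-07.

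Genes with the most multi-block peaks had some retained and some lost. Over all multi-block peaks 28.9% were retained, and at such a share a gene with several peaks will often show both outcomes. Crocc, the gene of the ciliary rootlet protein rootletin, had 8 such peaks with 1 retained. Sptbn4, which encodes the spectrin of axon initial segments, had 7 with 3 retained, and Akap9, a Golgi and centrosome scaffold gene, 6 with 4. Cep250, a centrosome linker gene, had 5 with 1 retained, of which 9.57% lay under KO peaks. Sltm had 5 with 1 retained. Of the 580 genes with 2 or more multi-block peaks, 66 retained all, 251 retained none and 263 retained some.

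Multi-block peaks of the m6A machinery were few, with 2 of 3 retained in writer genes and 6 of 9 in reader and eraser genes. Over all multi-block peaks 28.9% were retained, and 50% of those from 360 bases wide. The few peaks of these genes were not compared at equal width. Among 12 writer and cofactor genes only Zc3h13, the scaffold of the writer complex, carried any, and 2 of its 3 were retained. The wider of these, on 5 blocks and 1736 bases, had 57.0% of its bases under KO peaks. Among 14 reader and eraser genes, 6 had a multi-block peak and 5 retained one. For comparison, 32.5% of all genes with a multi-block peak retained one. Hnrnpa2b1, a nuclear RNA-binding protein gene, had 7 blocks over 536 bases with 94.4% covered and 5 of 6 junctions shared. The nuclear reader gene Ythdc1 had a 2-block peak of 240 bases that was covered whole, and Hnrnpc one of 270 bases with identical blocks. Prrc2a retained 2 of 3 and Fmr1, the fragile X gene, 1 of 2. Ythdf3, a cytoplasmic reader gene, lost its 2-block peak of 121 bases.

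RNA processing genes were next. Over all genes with a multi-block peak, 32.5% retained one. A gene with several such peaks has more chances to retain one, and the lists were not adjusted for this. Of 20 exon junction complex and nonsense-mediated decay genes, 9 had a multi-block peak and 7 retained one. Among them were Acin1 (2 of 4 peaks), of the ASAP complex, and Pnn (1 of 2), of the PSAP complex, both bound at exon junctions. Rnps1, shared by these 2 complexes, and Smg6, the endonuclease of nonsense-mediated decay, lost theirs. Of 26 spliceosome and SR protein genes, 15 had one and 11 retained one. Sf3b2, a U2 snRNP gene, retained 2 of 4 and Srrm1 2 of 3, while the helicase gene Snrnp200 lost 2 and Son lost 1. Neuronal RNA-binding protein genes had a multi-block peak in 12 of 26 and retained one in 5. Rbfox3, which encodes NeuN, retained 2 of 2, and the microexon regulator gene Srrm3 1 of 2, with 5.47% of that peak's bases covered. Nova2 and Rbfox2 lost theirs.

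Among neuronal structure genes, cytoskeletal linkers had a multi-block peak in 25 of 32 genes and a retained one in 20. These 25 genes held 50 multi-block peaks, 29 of them retained. The share over all genes with such a peak was 32.5%, and the number of peaks per gene was not matched. Sptbn4 retained 3 of 7. The plakin genes Dst and Macf1 lost 3 and 2. Synaptic and axonal genes had one in 31 of 50 and a retained one in 15. Lmtk3 retained 2 of 2, while the axon guidance receptor gene Robo1 lost 3 and the cadherin gene Celsr2 lost 2. Chromatin modifier genes had one in 28 of 48 and a retained one in 18, with Chd5 (4 of 4 peaks) among them. The histone methyltransferase genes Kmt2d and Kmt2e lost 3 each. Progenitor regulators had one in 10 of 33 genes and a retained one in 3, near the share over all genes. Nfix retained 2 of 2 and Cux2 1 of 3, whereas Cux1 lost 3 and Tcf4 lost 1.

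**Figure D5:**
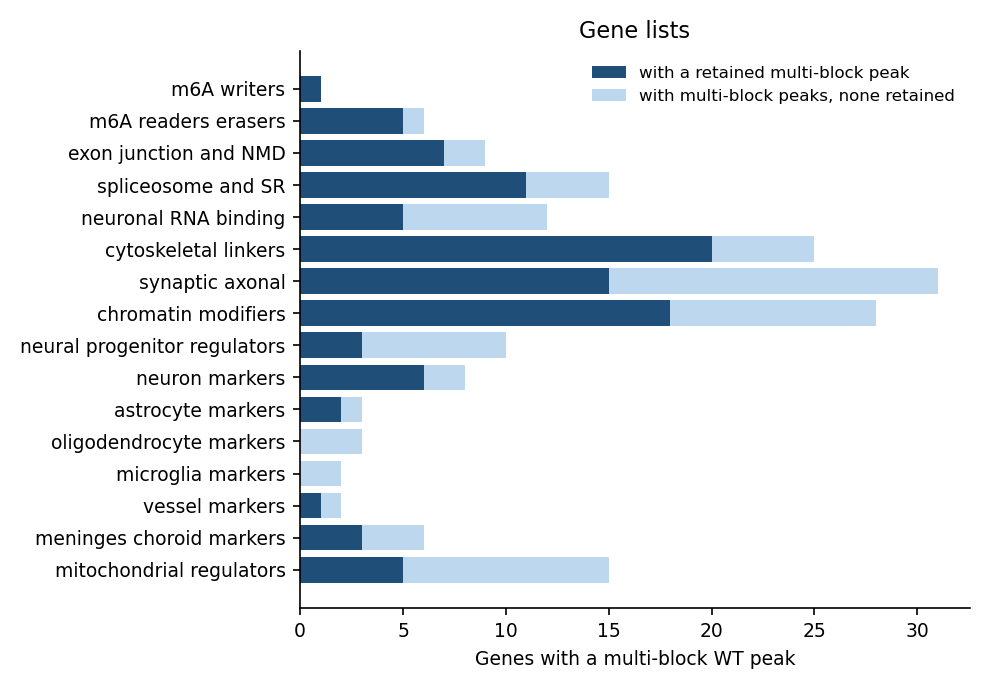
Number of genes with a multi-block WT peak in each gene list (horizontal axis), divided into genes with a retained multi-block peak (dark) and without one (light). Cytoskeletal linkers show 20 of 25 genes retained and oligodendrocyte markers 0 of 3, and the list of blood markers, with no such gene, is left out. Over all genes with a multi-block peak the share is 32.5%.

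Neuron markers had one in 8 of 17 genes and a retained one in 6, with Rbfox3 (2 of 2) and Map2 (1 of 2) among them. The share over all genes with such a peak was 32.5%, and the marker lists are small. Slc32a1, the vesicular transporter gene of inhibitory neurons, and the neuronal tubulin gene Tubb3 lost theirs. Astrocyte markers retained one in 2 of 3 genes. Slc1a3, a glutamate transporter gene, retained 1 of 2, Aldh1l1 overlapped a KO peak by 1 base, and Gfap lost a peak of 6 blocks. Oligodendrocyte markers retained none in 3 genes, which include Sox10 and Nkx2-2. Multi-block peaks were retained in 0 of 2 microglial genes (C1qa and C1qc) and 1 of 2 vessel genes, whose cells lie outside the Nestin lineage, and in 3 of 6 genes of a list that joins meningeal and choroid plexus markers. Notch3 retained its peak, Myh11 did not, Col4a1 retained 1 of 3, and Col3a1 and Col4a2 lost theirs. No blood marker carried a WT peak of any kind. How far such cells contribute to the retained peaks was not tested.

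Mitochondrial function is the subject the study's title gives. Of 52 nuclear genes of mitochondrial biogenesis, dynamics, import and respiration, 15 had a multi-block peak and 5 retained one. Twnk, the mitochondrial helicase gene, had a 2-block peak of 508 bases with 58.9% covered, and the complex I gene Ndufb7 one of 533 bases with 33.4% covered. Polrmt, the mitochondrial RNA polymerase gene, and the complex I gene Ndufv1 lost theirs. The share of these genes with a retained multi-block peak, 5 of 15, lay near the 32.5% of all genes with such a peak.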

How the data were processed

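The authors deposited 1 consensus peak list per genotype, each entry with position, strand, gene symbol and exonic blocks. Per the submitters' processing notes STAR and GRCm38 were used. For the peak caller, its thresholds and the pooling of libraries the sources used here give nothing. From its range, all close to 0, the deposited score was taken as a p-value or q-value of IP over input. It was used to rank or classify peaks within a list. Samples were grouped by title.

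Entries were analysed as deposited, in Python 3.11.15 with scipy 1.17.1 and statsmodels 0.14.6. Overlap means at least 1 exonic base on the same strand. Shares carry Wilson intervals. Shares were compared by Fisher's exact test, by Mantel-Haenszel differences over width classes with Greenland-Robins variance, and by conditional logistic regression with the gene as stratum and log2 width and score rank as covariates. The overlap calls, the Mantel-Haenszel difference and the conditional regression were tested on simulated data with known answers. The simulated peaks for the overlap calls and the Mantel-Haenszel difference were drawn independently. No set test was made. Positions came from RefSeq gene spans, found for 3534 of 3538 multi-block peaks, and edge sequences from RefSeq promoter windows, both of GRCm38.p6. Coordinates count from 1.

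Named genes were the 8 with most blocks, most multi-block peaks, most shared junctions, and most junctions without a retained peak, up to 2 retained and 2 lost genes per list, and all m6A genes with such a peak. Gm and Rik names were left out. Some genes that met the rule are not reported here. The members, lists and rules were chosen with earlier results of these data known.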

Additional observations from a re-analysis of the deposited data

How the results depend on the processing

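No paired analysis was possible because each genotype has 1 list without library columns, which also left no replicate to omit. The 28.9% of multi-block peaks retained became 14.98% when a KO peak had to cover 50% of the WT peak, 14.8% for 50% of both peaks, 43.9% for 3 or more blocks and 30.6% for outer blocks of at least 20 bases. It was 33.8% with the stronger 50% of each list and 57.2% with as many top-ranked WT peaks as KO peaks. Whole spans, ignoring strand, merging entries and, chosen after seeing the data, asking for 20 shared bases kept it within its interval. The difference at similar width ranged from 9.996 to 29.6 points over its 9 alternatives, and the odds ratio within genes from 2.32 to 3.12 over 3, each above no difference. Junctions shared with the KO were 20.6% of all, 51.6% of those in retained peaks, and 19.9% with 20 bases asked for on each side. The near minus far difference of 6.44 points was 4.10 with 50 bases, 7.38 with 200 bases and 17.4 in retained peaks. Library depth and gene expression are unknown here, so presence in a list and sampling of the transcript cannot be told apart.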

Other observations

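Some multi-block peaks joined exons across very long gaps. The longest gap lay in Asic2, an acid-sensing ion channel gene, where a 2-block peak of 330 exonic bases on chromosome 11 (81152655 to 81967710) crossed 814726 bases and was retained. Gpc5, a glypican gene, had a 2-block peak across 735947 bases that was lost, and Ntm, a neuronal adhesion gene, one across 549392 bases that was retained. In Ctnna2, which encodes the neuronal alpha-catenin, a gap of 461237 bases lay in a lost peak of 3 blocks, and in Hs3st4, a heparan sulfate sulfotransferase gene, one of 412932 bases in a retained peak. Retained asks for 1 shared exonic base and not for the same gap. In Asic2 and in Hs3st4 no KO peak crossed the gap. At the other end, gaps of 1 base occurred in peaks of Fam181b and Zswim9, among others, gaps too short for an intron, and both peaks were lost. These genes were chosen by gap length after the values were seen.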
